A study of Mus musculus with 80 samples.

Results

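Collagen chains are the subunits of the extracellular fibres, sheets and microfibrils that hold the heart together. They were taken here as every probe set whose only gene symbol had the form Col, a number, the letter a and a number, and where a symbol had more than 1 probe set the one with the highest mean over all arrays stood for the chain. This gave 42 chains of the 18820 named genes on the array, covered by 46 probe sets, because Col5a1, Col6a5, Col6a6 and Col20a1 had 2 probe sets each. By structure, 11 were fibrillar chains, 6 were type IV chains of the basement membrane, 2 were multiplexin chains of the basement membrane zone, 6 were type VI chains, 8 were fibril-associated chains with interrupted helices (FACIT), 3 were short-chain network formers, 4 were transmembrane chains and 2 were others. Col7a1, Col9a3 and Col21a1 had no probe set with a single symbol and were not analysed here.

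The chains were measured in hearts of male adult C57BL/6J mice, with 1 Mouse Gene 1.0 ST array for each of 80 animals. Sleep-deprived mice were kept awake by gentle handling that began at lights-on and were killed after 3 h (n = 8), 6 h (n = 9), 9 h (n = 9) or 12 h (n = 8), and sleeping mice were left undisturbed and killed at the same clock times (n = 9 at each). Undisturbed baseline mice were killed at lights-on, before the main sleep period (n = 10). All groups shared a regular light-dark cycle and had been accustomed to food offered only in the dark and to being touched with a person nearby. Brain waves were not recorded, so undisturbed mice may have been awake for part of the time and handled mice may have slept briefly, and the design covers 1 inbred strain and 1 sex.

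Every collagen has a region in which its chains wind around one another in a helix, and chains of different genes can join in one molecule. Types I and III form the cable-like fibrils that cardiac fibroblasts lay down between muscle bundles, type V starts fibrils and limits their width, and type IV forms the mesh of the basement membrane around cardiomyocytes and capillaries. Collagen messenger RNA reports what cells prepare to make, whereas the deposited protein is long-lived, so the arrays say nothing of how much collagen the tissue held.

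Values are log2 intensities, so that a difference of 1 is a doubling, and they are compared between groups for one probe set at a time, because probe sets differ in how brightly they respond. Array medians lay between 5.23 and 5.39, pairs of arrays correlated at 0.978 to 0.995, and 7 cardiomyocyte markers (among them Tnnt2, Tnni3 and Actc1) lay between 11.8 and 13.5 on every array, so the defining markers of heart muscle were present throughout. No chain was left out for low values, and 12 of the 42 lay under the 40th percentile of mean intensity over all probe sets. The numbers in the array titles fell into 4 runs whose meaning the labels do not give. Runs 1 and 2 (20 and 15 arrays) held every animal of 9 h and 12 h, and runs 3 and 4 (29 and 16 arrays) held every animal of 3 h and 6 h, with all baseline animals in run 3. Comparisons between sleep-deprived and sleeping mice lie within runs, whereas baseline and the 9 h or 12 h animals lie in different runs, so there time and run cannot be told apart. On 5 arrays, 3 of baseline and 2 of 6 h of deprivation, 7 skeletal muscle genes averaged 6.56 to 9.25, against at most 6.45 on the other arrays, and 5 arrays had a low mean correlation with the rest. In whole hearts, fewer cells of a type and less RNA per cell cannot be told apart.

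Over all times together, 34 sleep-deprived hearts differed from 36 sleeping hearts in 2 of the 42 chains at a false discovery rate of 1% (limma, adjusted over all 35556 probe sets). Col20a1 was higher, where 5.08% of all named genes were called higher, and Col6a6 was lower, where 6.45% were called lower. The median difference over the chains was -0.0040, beside -0.0029 over all named genes, and 7 chains had an unadjusted p under 0.05. None of the 11 fibrillar chains was called, and their differences ran between -0.08 for Col3a1 and 0.06 for Col1a1. None of the 6 type IV chains was called either, although 3 of the 7 chains with an unadjusted p under 0.05 were among them. This fit held no term for time, and Col4a1 passed 1% once clock time was added as a factor (limma adjusted p = 0.000745). Neither call was kept without the 6 h, the 9 h or the 12 h animals (0 chains called each time), and that of Col20a1 was also lost without the 3 h animals (adjusted p = 0.0766). No chain met both requirements of the study's strict class, a state effect and a trend over undisturbed sleep in the matching direction. Limma stood here in place of the study's permutation test, and 3.43% of named genes met both. The paper reported a larger share for the heart with its own test.

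**Figure D1:**
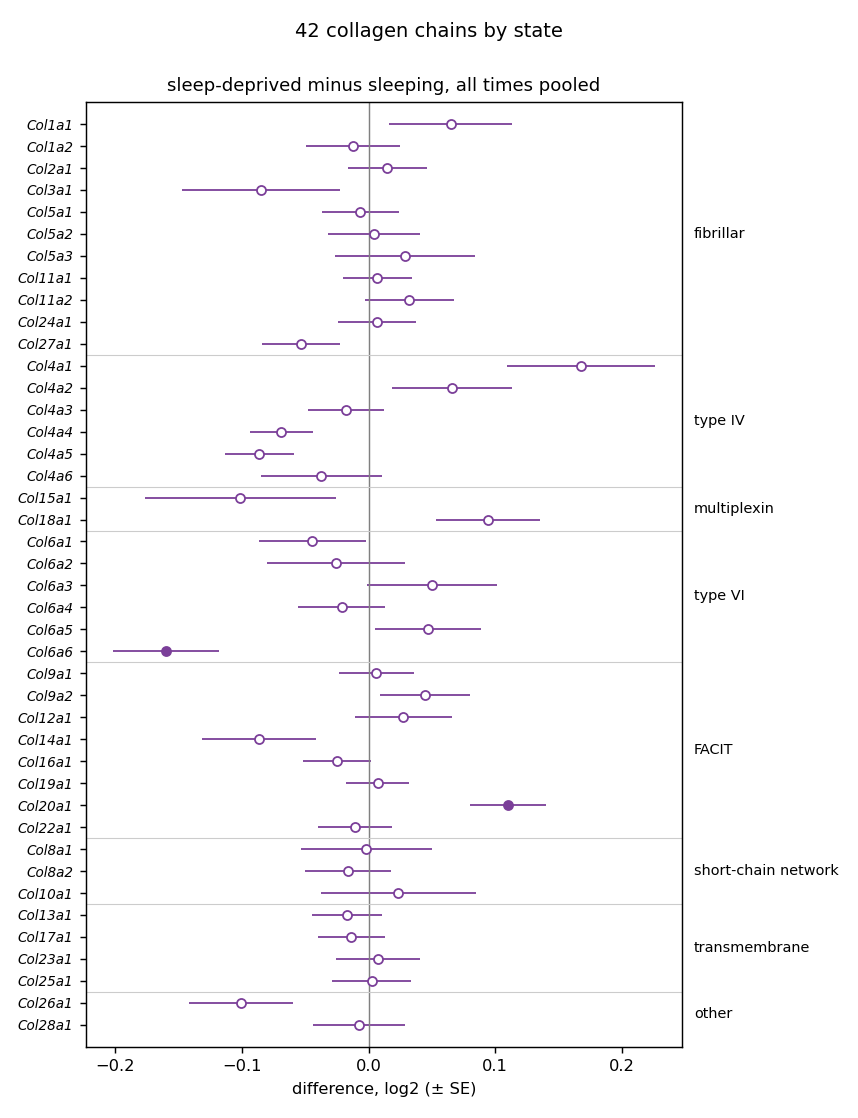
Difference between 34 sleep-deprived and 36 sleeping hearts (log2, horizontal axis, points with bars of 1 SE) for each of the 42 collagen chains, grouped by structural class, with filled points for chains called at 1%. Most chains lie within 0.1 of 0, and the filled points are Col6a6 at -0.16 and Col20a1 at 0.11.

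Taken time by time, no chain was called between sleep-deprived and sleeping hearts. This held at 3 h (2.24% of named genes called), at 6 h (3.86%), at 9 h (4.63%) and at 12 h (4.2%), and 11 chains at 3 h and 6 at each later time had an unadjusted p under 0.05. The median over the chains was 0.048 at 3 h (0.024 over all named genes), -0.062 at 6 h (-0.014), -0.029 at 9 h (-0.026) and 0.019 at 12 h (0.0010). At 3 h 30 of 42 chains lay above 0 and at 6 h 33 of 42 lay below it, but the test of whether the state difference varied with time called no chain (0.531% of named genes called), with 8 chains at an unadjusted p under 0.05. The chain with the smallest p at a single time was Col11a2, a chain of the fibrils best known from cartilage, at 3 h. It spanned 4.90 to 5.11 in deprived hearts (median 5.02), against 4.63 to 5.03 in sleeping hearts (median 4.79), a difference of 0.19 ± 0.055 (SE, 8 of 8 deprived hearts above the sleeping mean) with an adjusted p of 0.0334 by limma, short of the 1% level.

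Col6a6 encodes a type VI chain that can stand in for the alpha3 chain in the beaded microfibrils next to basement membranes. Over all times it averaged 5.97 in sleep-deprived hearts and 6.12 in sleeping hearts, a ratio of 0.895 (-0.16 ± 0.04, limma adjusted p = 0.00423), and 27 of 34 deprived hearts lay under the sleeping mean of their own time. At 6 h it spanned 5.85 to 6.23 in deprived hearts (median 6.01), against 5.88 to 6.55 in sleeping hearts (median 6.24). At 9 h it spanned 5.41 to 6.18 (median 5.92) after deprivation, against 5.89 to 6.43 (median 6.10) in sleep. The ranges overlapped at every time, and at 3 h the medians were 6.01 in deprived and 6.10 in sleeping hearts. The second Col6a6 probe set was lower too (-0.20 ± 0.05, adjusted p = 0.00383). Over deprivation its slope across 12 h came to -0.29 (limma adjusted p = 0.00187), past 1%. That of the first probe set came to -0.20 (adjusted p = 0.0268), not called. The state difference of the first probe set was uneven over runs 1 to 4, at -0.02, -0.42, -0.04 and -0.23. With arrays centred on their medians it was -0.14 with an adjusted p of 0.0174.

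Col20a1 encodes a fibril-associated chain of which little is known in the heart. It averaged 6.47 in sleep-deprived hearts and 6.36 in sleeping hearts, a ratio of 1.08 (0.11 ± 0.03, limma adjusted p = 0.00597), and 32 of 34 deprived hearts lay above the sleeping mean of their own time. At 3 h it spanned 6.39 to 6.85 in deprived hearts (median 6.52), against 6.27 to 6.48 in sleeping hearts (median 6.37). The deprived median lay above the highest sleeping heart although the ranges overlapped, and the difference at single times was 0.18, 0.13, 0.09 and 0.05 at 3, 6, 9 and 12 h. The second probe set gave 0.06 ± 0.04 (adjusted p = 0.282). Within run 1 the difference was -0.05, and in runs 2, 3 and 4 it was 0.23, 0.16 and 0.13.

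**Figure D2:**
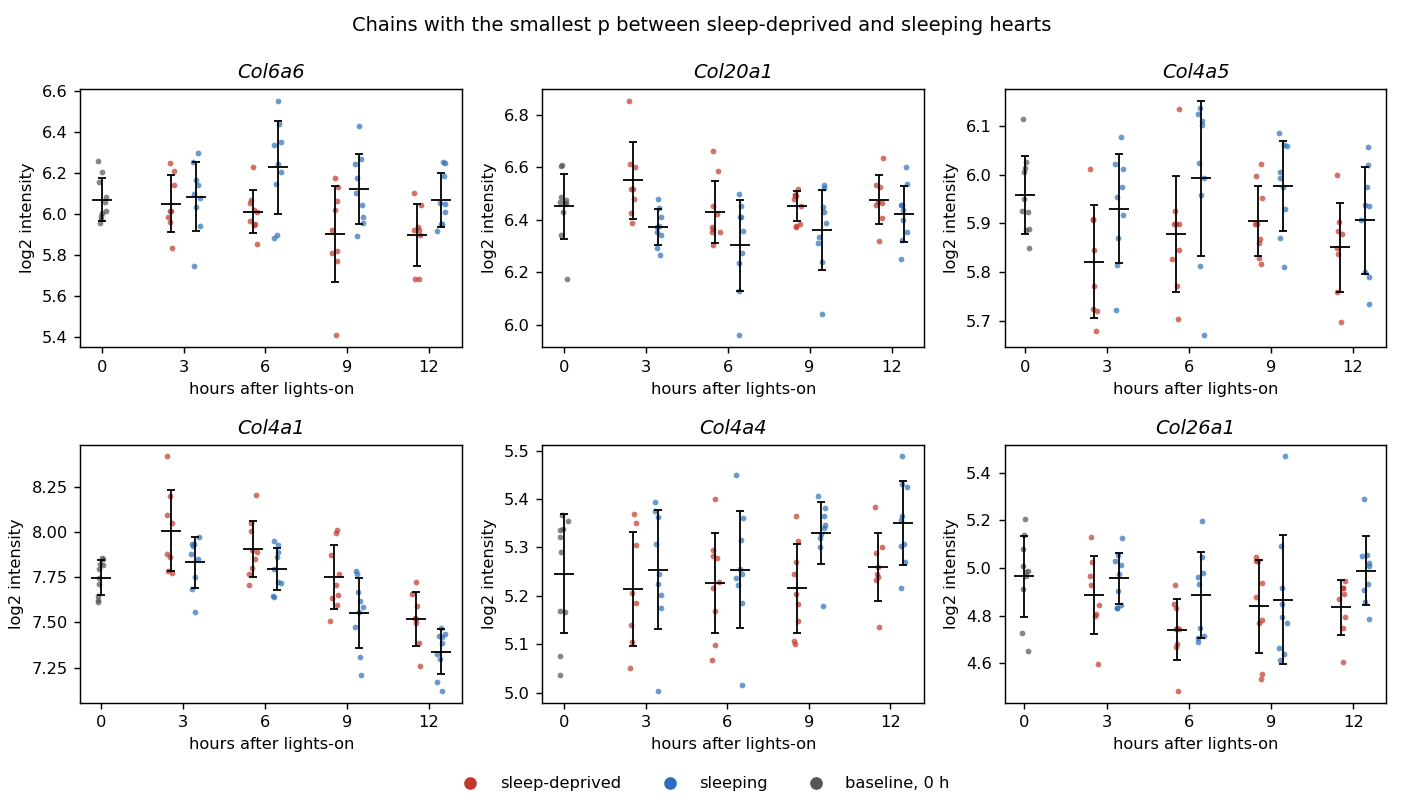
Log2 intensity of every heart (points, vertical axis) by hours after lights-on (horizontal axis) for the 6 chains with the smallest p between states, with sleep-deprived, sleeping and baseline hearts in separate colours and lines for the mean and SD. Col6a6 lies lower and Col20a1 and Col4a1 lie higher in the deprived hearts at most times, and the points overlap at every time.

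Col4a1 and Col4a2 encode the chains that pair in nearly all basement membranes, and their genes lie head to head on chromosome 8. Col4a1 averaged 7.80 in sleep-deprived hearts and 7.63 in sleeping hearts, a ratio of 1.12 (0.17 ± 0.06, 28 of 34 deprived hearts above the sleeping mean of their own time), which limma did not call (adjusted p = 0.0422). When clock time was added as a factor, it was 0.17 ± 0.04 and passed (adjusted p = 0.000745), and with the runs as a block it passed as well (adjusted p = 0.00282). Within runs 1 to 4 it was 0.19, 0.18, 0.11 and 0.18. Its highest group was deprived hearts at 3 h, at 7.77 to 8.42 (median 7.96), and its lowest was sleeping hearts at 12 h, at 7.12 to 7.47 (median 7.38).

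The mean of Col4a1 was above that of sleeping hearts in deprived hearts at every time. The differences were 0.18 at 3 h, 0.11 at 6 h, 0.20 at 9 h and 0.18 at 12 h, none of them called alone. Col4a2 averaged 8.18 and 8.11 in deprived and sleeping hearts at 3 h, and 7.82 and 7.74 in deprived and sleeping hearts at 12 h. Its pooled difference was 0.07 ± 0.05 (adjusted p = 0.432).

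The starts of both genes are shown because both chains fell over sleep and because the windows overlap. The RefSeq window from 250 bases before to 50 bases after the annotated start was read for 34 of the 42 chains (GRCm38.p6). That of Col4a1 lay at chr8:11312777-11313076 on the minus strand and that of Col4a2 at chr8:11312555-11312854 on the plus strand. Capitals mark the 78 bases that both windows hold, read from opposite strands.
Col4a1: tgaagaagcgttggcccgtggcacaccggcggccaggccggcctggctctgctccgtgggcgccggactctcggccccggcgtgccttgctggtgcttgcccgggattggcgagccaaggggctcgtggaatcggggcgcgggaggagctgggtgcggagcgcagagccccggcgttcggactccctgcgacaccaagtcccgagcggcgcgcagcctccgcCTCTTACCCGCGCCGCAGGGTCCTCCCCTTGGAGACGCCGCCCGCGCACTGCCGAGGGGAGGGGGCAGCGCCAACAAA
Col4a2: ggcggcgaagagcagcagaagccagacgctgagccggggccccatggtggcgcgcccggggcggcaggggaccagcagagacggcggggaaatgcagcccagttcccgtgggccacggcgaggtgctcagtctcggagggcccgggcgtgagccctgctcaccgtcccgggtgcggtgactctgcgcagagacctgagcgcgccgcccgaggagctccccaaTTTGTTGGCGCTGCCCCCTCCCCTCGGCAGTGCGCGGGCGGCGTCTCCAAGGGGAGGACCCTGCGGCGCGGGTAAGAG

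None of the other type IV chains was called between the states. Col4a3, Col4a4 and Col4a5 encode the chains of the network best known from the kidney filter, and Col4a5 and Col4a6 those of the network around smooth muscle. Col4a5 averaged 5.87 in sleep-deprived hearts and 5.95 in sleeping hearts, with 29 of 34 deprived hearts under the sleeping mean of their own time (-0.09 ± 0.03, limma adjusted p = 0.0226). At 6 h it spanned 5.70 to 6.14 in deprived hearts (median 5.90), against 5.67 to 6.14 in sleeping hearts (median 6.03), so the ranges coincided and only the middle of the groups parted. Col4a4 averaged 5.23 in deprived and 5.30 in sleeping hearts (-0.07 ± 0.02, adjusted p = 0.0513). For Col4a3 the pooled difference was -0.02 ± 0.03, and for Col4a6 it was -0.04 ± 0.05. With arrays centred on their medians the difference was -0.06 for Col4a5 and -0.05 for Col4a4. Col26a1, outside the named classes, was the sixth by p, at 4.82 in deprived and 4.93 in sleeping hearts (-0.10 ± 0.04, adjusted p = 0.0929).

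Against the lights-on baseline, calls among the chains were few at first and all of them were lower. The 8 comparisons share the baseline arrays. At 3 h no chain was called in deprived hearts (2.43% of named genes called, 7 chains at an unadjusted p under 0.05) or in sleeping hearts (0.223%, 1 chain). At 6 h Col5a3 and Col27a1 were lower in deprived hearts (3.94% of named genes called lower) and Col5a3 in sleeping hearts (1.14%). At 9 h Col5a3 was the only chain called, both in deprived hearts (5.83% called lower) and in sleeping hearts (7.45%). At 12 h 5 chains were lower in deprived hearts (8.78% called lower), namely Col3a1, Col5a3, Col6a2, Col6a3 and Col15a1, and 7 were lower in sleeping hearts (9.47%), the same 5 and Col4a1 and Col4a2. The median over all 42 chains at 12 h was near 0 in both states, at 0.015 in deprived hearts (-0.0093 over all named genes) and -0.0013 in sleeping hearts (-0.0067), beside the few chains that fell.

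**Figure D3:**
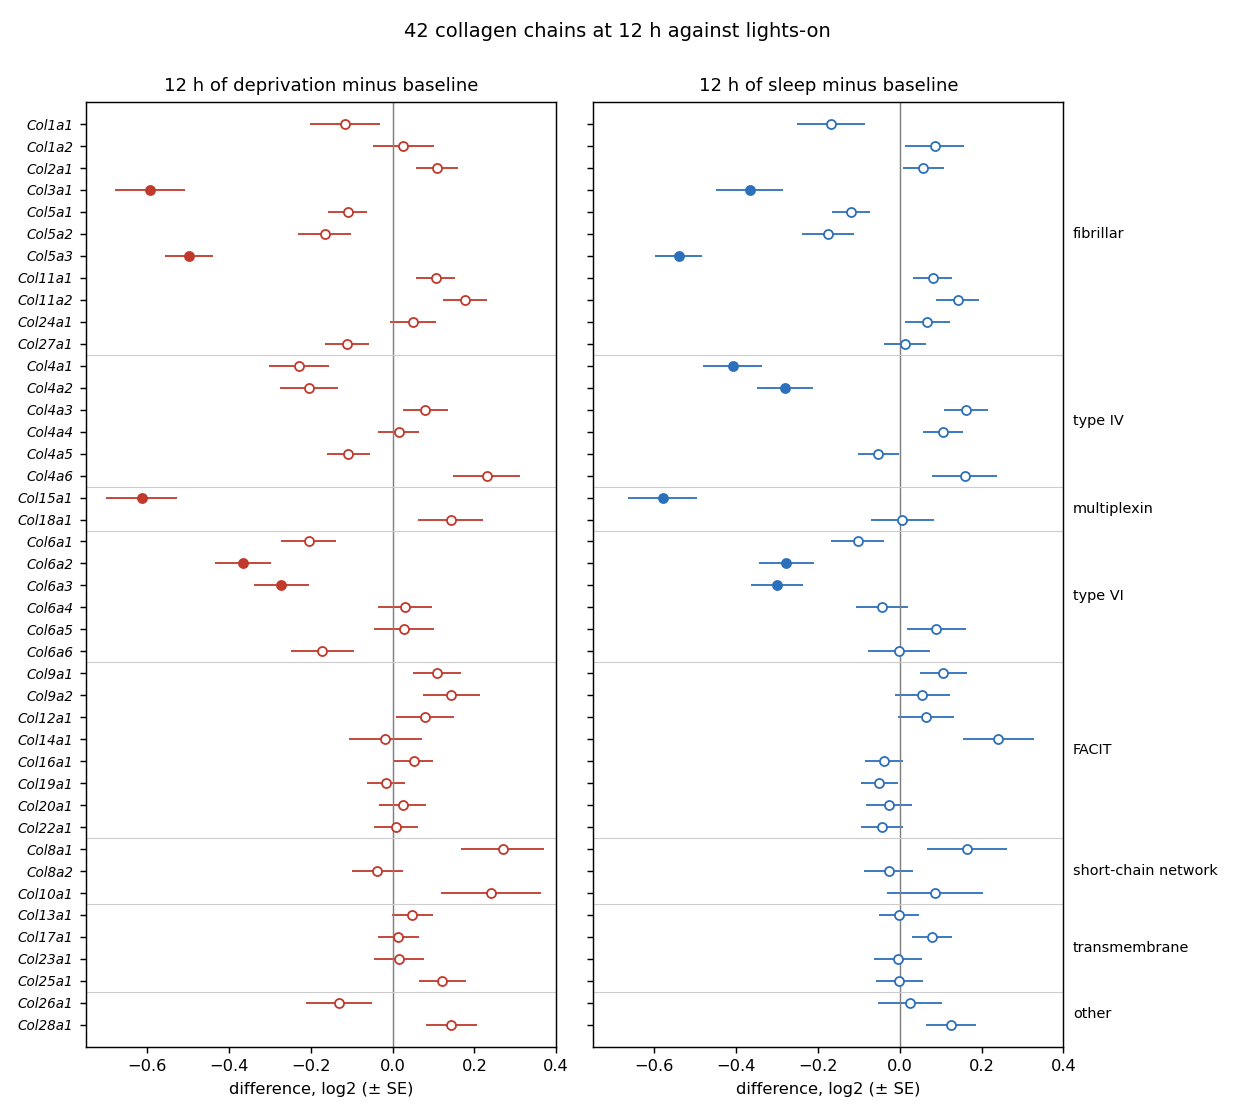
Difference from the lights-on baseline at 12 h (log2, horizontal axis, points with bars of 1 SE) for each of the 42 chains, in deprived hearts (left panel, n = 8 against 10) and sleeping hearts (right panel, n = 9 against 10), with filled points for chains called at 1%. The filled points lie left of 0 in both panels, with Col15a1 at -0.61 in deprived and -0.58 in sleeping hearts, while most other chains lie within 0.2 of 0.

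A straight line over hours was fitted in each state. Over deprivation, with baseline as time 0, 4 chains fell (9.04% of named genes called lower) and 1 rose (5.36% called higher). The 4 were Col3a1, Col5a3, Col6a2 and Col15a1, and the 1 was Col4a6. Over sleep, 7 chains fell (12.9% called lower) and 2 rose (9.36% called higher). The 7 were the chains lower at 12 h, and Col11a2 and Col14a1 rose. With the runs as a block, which takes out most of the step between 6 h and 9 h as well, 1 chain over sleep (Col5a3) and no chain over deprivation stayed past 1%, and between 0 and 6 h alone the counts were again 1 (Col5a3) and 0.

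The 12 h and 9 h animals lie in the same runs, so their comparison is free of the run boundary. After deprivation 1 chain, Col6a3, was lower at 12 h than at 9 h (0.128% of named genes called lower), and in sleep 1 chain, Col15a1, was lower (0.909%). Col15a1 fell by 0.47 on the log2 scale between 9 h and 12 h of sleep (SE 0.09, limma adjusted p = 0.00018, 9 of 9 animals under the 9 h mean). After deprivation its difference was -0.40 ± 0.09, with an adjusted p of 0.0104, just short of the 1% level. Col6a3 fell by 0.33 after deprivation (SE 0.07, adjusted p = 0.0036, 8 of 8 animals under the 9 h mean), and its difference in sleep was -0.24 ± 0.07 (adjusted p = 0.0236).

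**Figure D4:**
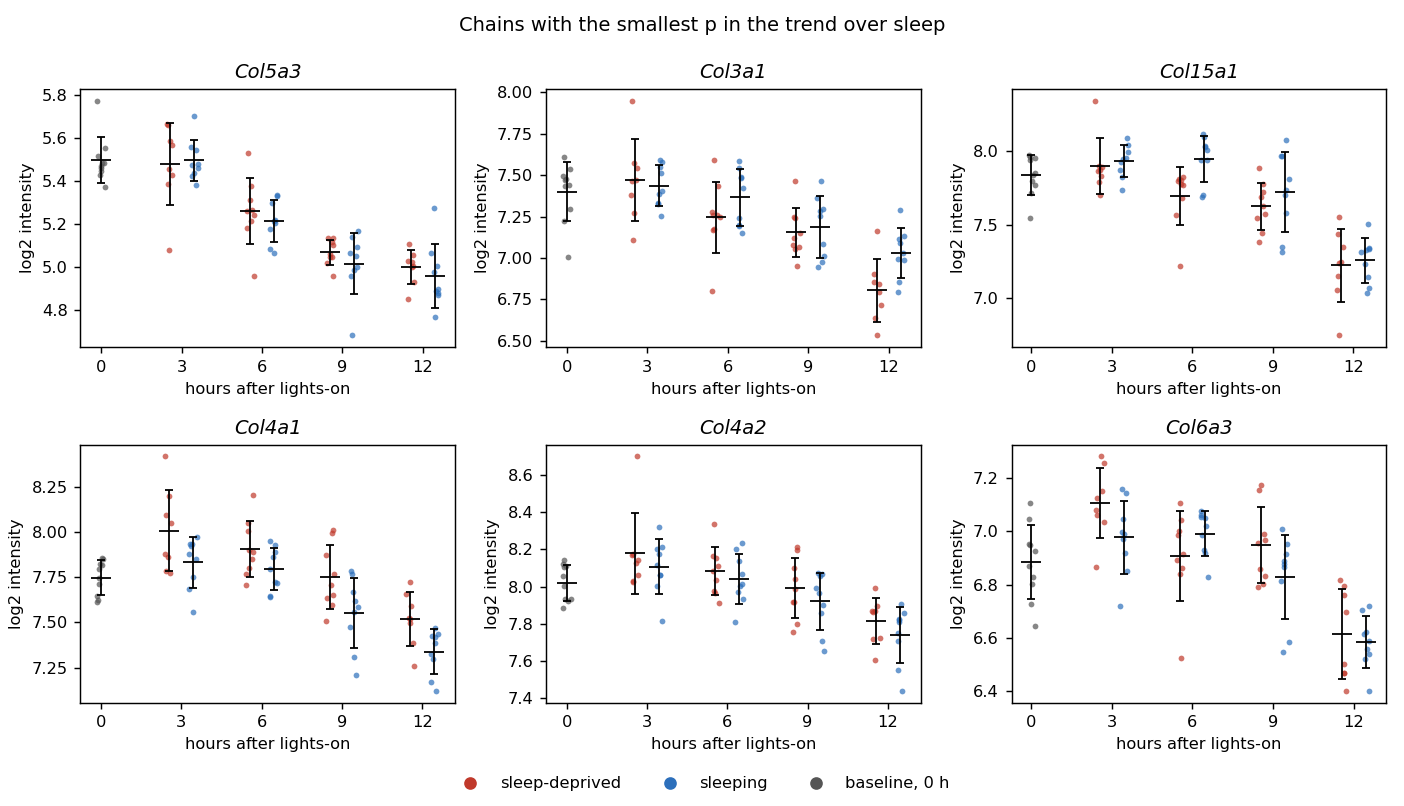
Log2 intensity of every heart (points, vertical axis) by hours after lights-on (horizontal axis) for the 6 chains with the smallest p in the trend over sleep, with sleep-deprived, sleeping and baseline hearts in separate colours and lines for the mean and SD. Col5a3 is already lower at 6 h and 9 h, whereas the means of Col15a1 and Col6a3 are lower mainly at 12 h in both states.

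Col5a3 was the only chain called against baseline at 6 h, 9 h and 12 h in both states. It encodes the rarest chain of type V, the collagen that starts fibrils. In sleep it spanned 5.37 to 5.77 at baseline (median 5.47), 5.38 to 5.70 at 3 h (5.47), 5.06 to 5.33 at 6 h (5.21), 4.68 to 5.17 at 9 h (5.05) and 4.77 to 5.27 at 12 h (4.90). From 6 h on every sleeping heart lay below every baseline heart, and the difference at 12 h was -0.54 ± 0.06, a ratio of 0.69 (limma adjusted p = 4.28e-12). In deprivation the medians were 5.51 at 3 h, 5.26 at 6 h, 5.06 at 9 h and 5.01 at 12 h, with no overlap with baseline at 9 h or 12 h and a difference at 12 h of -0.50 ± 0.06 (adjusted p = 2.48e-10).

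No state difference of Col5a3 was called at any time, and the largest was 0.05 ± 0.06 at 9 h (adjusted p = 0.657). Because part of the 6 h animals share run 3 with baseline, the early part of the fall could be tested with the runs as a block. It was -0.29 in sleep (adjusted p = 0.00102) and -0.24 in deprivation (adjusted p = 0.00313). Without the 5 arrays high in skeletal muscle genes the 6 h difference stayed past 1% in sleep (adjusted p = 0.00386) but not in deprivation (-0.25, adjusted p = 0.015). The start of Col5a3 is shown for its 3 matches to the GC box GGGCGG, in the GRCm38.p6 window chr9:20815018-20815317 on the minus strand, with capitals for these and for 1 CCAAT match, read on either strand.
Col5a3: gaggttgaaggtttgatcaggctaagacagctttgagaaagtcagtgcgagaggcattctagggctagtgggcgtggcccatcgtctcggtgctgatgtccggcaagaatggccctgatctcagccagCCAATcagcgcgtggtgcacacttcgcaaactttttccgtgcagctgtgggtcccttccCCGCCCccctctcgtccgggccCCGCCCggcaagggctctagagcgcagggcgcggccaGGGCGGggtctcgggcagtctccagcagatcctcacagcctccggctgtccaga

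Col3a1 encodes the only chain of type III, the fibrillar collagen laid down beside type I in stretchable tissue. After 12 h of deprivation it spanned 6.53 to 7.16 (median 6.82), and after 12 h of sleep 6.79 to 7.29 (median 7.03), against 7.01 to 7.61 at baseline (median 7.46). All 8 deprived and all 9 sleeping hearts lay under the baseline mean, and the ranges overlapped. The differences from baseline were -0.59 ± 0.09 (a ratio of 0.66, limma adjusted p = 5.69e-08) after deprivation and -0.37 ± 0.08 (a ratio of 0.78, adjusted p = 0.00046) after sleep. Between the states at 12 h the difference was -0.23 ± 0.09, with 7 of 8 deprived hearts under the sleeping mean, and it was not called (adjusted p = 0.0987). At 6 h the means were 7.25 in deprived and 7.37 in sleeping hearts, against 7.399 at baseline, and neither difference was called. Its start is shown for the single match to the TATA box letters TATAAA in the window (capitals), on the plus strand at chr1:45311288-45311587 of GRCm38.p6. The match lies nearer to the middle of the window than to the annotated start, and whether it acts as a TATA box was not tested.
Col3a1: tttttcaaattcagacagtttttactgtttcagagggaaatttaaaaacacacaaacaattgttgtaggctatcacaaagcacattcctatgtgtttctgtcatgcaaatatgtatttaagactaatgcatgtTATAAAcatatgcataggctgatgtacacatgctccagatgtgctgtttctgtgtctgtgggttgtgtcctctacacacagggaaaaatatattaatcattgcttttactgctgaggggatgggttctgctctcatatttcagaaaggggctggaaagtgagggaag

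No other chain of types I and V was called against baseline. Col1a1 and Col1a2 encode the chains of type I, the main collagen of cardiac fibrils. At 12 h Col1a1 averaged 7.42 ± 0.23 (SD, n = 8) in deprived and 7.37 ± 0.12 (n = 9) in sleeping hearts, against 7.54 ± 0.13 (n = 10) at baseline. Neither difference was called, at -0.12 ± 0.09 (limma adjusted p = 0.453) for deprived and -0.17 ± 0.08 (adjusted p = 0.157) for sleeping hearts. Col1a2, its partner, averaged 7.79 in deprived and 7.85 in sleeping hearts at 12 h, against 7.76 at baseline, with differences of 0.03 and 0.09. Over the states pooled, type I gave 0.06 ± 0.05 for Col1a1 and -0.01 ± 0.04 for Col1a2.

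Col5a1 and Col5a2 encode the common chains of type V. At 12 h Col5a1 averaged 5.75 in deprived and 5.74 in sleeping hearts, against 5.86 at baseline (adjusted p = 0.129 and 0.0616). Col5a2 averaged 5.80 in deprived and 5.79 in sleeping hearts at 12 h, against 5.97 at baseline (adjusted p = 0.0803 and 0.0411). Its slope over sleep came to -0.17 over 12 h with an adjusted p of 0.0138, and it passed 1% in 5 of the alternative settings. The second Col5a1 probe set was not called in the pooled comparison either (0.03 ± 0.03). At 12 h its differences from baseline were 0.07 in sleeping and 0.007 in deprived hearts, where the first probe set gave -0.12 and -0.11. Over sleep the slope across 12 h came to 0.12 for the second and -0.11 for the first, neither called, so the 2 probe sets differed in direction.

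The remaining fibrillar chains belong to collagens known mainly from cartilage or found as minor fibril components. Their mean intensities lay between percentiles 33.3 (Col11a1) and 49.7 (Col27a1) of all probe sets, and that of Col5a3 at 48.9. Col11a2 rose over sleep by 0.20 ± 0.05 across 12 h (limma adjusted p = 0.00306), with means of 5.06 at 12 h of sleep and 4.92 at baseline. Between 0 and 6 h alone, and with the runs as a block, the slope had the opposite sign. Col27a1 was lower after 6 h of deprivation, at 4.997 to 5.32 (median 5.06), against 5.15 to 5.52 at baseline (median 5.36), a difference of -0.22 ± 0.05 (adjusted p = 0.00164) that missed 1% without the 5 arrays high in skeletal muscle genes (adjusted p = 0.0123). Its state difference was 0.14 at 3 h and -0.13 at 6 h, and the test over times gave an adjusted p of 0.0714. For Col2a1, Col11a1 and Col24a1 the pooled state differences were 0.015, 0.0069 and 0.0065, and none of them was called in any comparison.

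Among the type IV chains, Col4a1 and Col4a2 fell over sleep and no other was called there. Col4a1 spanned 7.12 to 7.47 at 12 h of sleep, against 7.61 to 7.86 at baseline (median 7.77), with no overlap (-0.41 ± 0.07, a ratio of 0.75, limma adjusted p = 5.69e-06). Col4a2 spanned 7.44 to 7.91 at 12 h of sleep (median 7.81), against 7.89 to 8.14 at baseline (median 8.03), a difference of -0.28 ± 0.07 (adjusted p = 0.00125) with ranges that met only at their edges. In deprived hearts at 12 h the differences from baseline were -0.23 ± 0.07 for Col4a1 (adjusted p = 0.022) and -0.20 ± 0.07 for Col4a2 (adjusted p = 0.0359), not called, with all 8 animals under the baseline mean for each. At 3 h of deprivation Col4a1 stood above baseline in all 8 animals (0.26 ± 0.07, adjusted p = 0.0297), which was not called either. With baseline left out, both chains fell past 1% over deprivation as well. The slope per hour was -0.054 for Col4a1 (limma adjusted p = 6.49e-05) and -0.039 for Col4a2 (adjusted p = 0.00123). Col4a6, the chain found around smooth muscle, rose over deprivation by 0.25 ± 0.07 across 12 h (adjusted p = 0.00756), at dim values of 4.47 to 4.89 at 12 h, against 4.21 to 4.61 at baseline, and between 0 and 6 h its slope had the opposite sign.

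Col15a1 encodes the chain of type XV, which ties basement membranes of muscle and capillaries to the fibrils beside them. Its calls in both states were at 12 h. In sleep it spanned 7.55 to 7.98 at baseline (median 7.85), 7.74 to 8.09 at 3 h (7.95), 7.68 to 8.11 at 6 h (8.01), 7.31 to 8.07 at 9 h (7.73) and 7.04 to 7.51 at 12 h (7.31). At 12 h no sleeping heart reached the lowest baseline heart, and the difference was -0.58 ± 0.08, a ratio of 0.67 (limma adjusted p = 8.13e-08). After 12 h of deprivation it spanned 6.75 to 7.55 (median 7.24), a difference from baseline of -0.61 ± 0.09 (adjusted p = 4.25e-08).

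Between the states Col15a1 had its smallest p at 6 h, short of the 1% level. There it spanned 7.22 to 7.83 in deprived hearts (median 7.78), against 7.68 to 8.11 in sleeping hearts (median 8.01), and all 9 deprived hearts lay under the sleeping mean (-0.26 ± 0.09, adjusted p = 0.0698). Col18a1, which encodes the other multiplexin chain and the precursor of endostatin, averaged 5.99 in sleep-deprived hearts and 5.90 in sleeping hearts over all times (0.09 ± 0.04, adjusted p = 0.13). Its difference from baseline at 12 h was 0.14 in deprived and 0.01 in sleeping hearts. The window read for Col15a1 is shown as well. No TATA box, CCAAT box, GC box or E-box CACGTG was found on either strand of chr4:47207762-47208061 (GRCm38.p6, plus strand). The gene itself begins at 47207655, so this window lies inside the gene and does not hold its first bases. The lack of matches therefore says nothing of the bases before the gene and is no contrast to the windows above.
Col15a1: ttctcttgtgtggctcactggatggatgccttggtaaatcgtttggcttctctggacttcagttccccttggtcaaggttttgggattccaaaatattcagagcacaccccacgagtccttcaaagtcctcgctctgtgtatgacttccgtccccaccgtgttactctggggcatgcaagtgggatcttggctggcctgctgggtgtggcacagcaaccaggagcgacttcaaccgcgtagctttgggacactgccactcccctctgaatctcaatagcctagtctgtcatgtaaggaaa

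Over the 34 windows read, the GC box GGGCGG was found on either strand in 21 (61.8%), beside 35.7% of all 32851 mouse windows of the same length. The CCAAT box was found in 11 (32.4%, beside 37.4% of all), TATAAA in 5 (14.7%, beside 13.6%) and the E-box CACGTG in 0, beside 7.15% of all. These are letter matches and not binding sites, and the window of Col15a1 inside its gene is counted among the 34.

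Type VI microfibrils are built from the products of Col6a1, Col6a2 and a longer chain, usually that of Col6a3. Col6a2 after 12 h of deprivation spanned 7.14 to 7.75 (median 7.42), and after 12 h of sleep 7.34 to 7.79 (median 7.44), against 7.51 to 7.96 at baseline (median 7.79). The differences were -0.37 ± 0.07 (limma adjusted p = 3.12e-05) and -0.28 ± 0.07 (adjusted p = 0.00123), with all 8 deprived and all 9 sleeping hearts under the baseline mean and overlapping ranges. Col6a3 after 12 h of deprivation spanned 6.40 to 6.82 (median 6.6), and after 12 h of sleep 6.40 to 6.72 (median 6.59), against 6.65 to 7.11 at baseline (median 6.90). Its differences were -0.27 ± 0.07 (adjusted p = 0.00148) and -0.30 ± 0.06 (adjusted p = 0.000225).

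Early in deprivation the means of both chains lay above baseline. At 3 h Col6a2 averaged 8.00 in deprived and 7.85 in sleeping hearts, against 7.80 at baseline, and Col6a3 averaged 7.11 in deprived and 6.98 in sleeping hearts, against 6.89 at baseline. The differences of the deprived hearts from baseline were 0.21 (adjusted p = 0.0895) and 0.22 (adjusted p = 0.0414), neither of them called. Without the arrays high in skeletal muscle genes, Col6a2 at 12 h of sleep (-0.24, adjusted p = 0.0146) and Col6a3 at 12 h of deprivation (-0.25, adjusted p = 0.0109) missed 1%.

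Col14a1 encodes a FACIT chain that coats type I fibrils, and it rose over sleep by 0.25 ± 0.07 across 12 h (limma adjusted p = 0.00404), and after 12 h it spanned 7.21 to 7.45 in sleeping hearts (median 7.34), against 6.65 to 7.43 at baseline (median 7.13). Over deprivation the slope came to 0.03 ± 0.09 across 12 h (adjusted p = 0.907). At 12 h deprived hearts spanned 6.84 to 7.29 (median 7.12), so that all 8 lay under the sleeping mean (-0.26 ± 0.09, adjusted p = 0.0665), a difference that was not called. The other 19 chains were called in no comparison. Their 12 h differences from baseline ran between -0.21 and 0.27 in deprived hearts and between -0.10 and 0.16 in sleeping hearts.

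Whether chains vary together from animal to animal was examined in 10 pairs, as the deviation of each of 80 hearts from its group mean. Some pairs join in one molecule, such as Col1a1 and Col1a2, and others belong to different collagens, such as Col1a1 and Col3a1. Col1a1 and Col1a2 gave r = 0.85 and rho = 0.85, Col1a1 and Col3a1 r = 0.80 and rho = 0.77, Col4a1 and Col4a2 r = 0.83 and rho = 0.77, and Col6a1 and Col6a2 r = 0.72 and rho = 0.69. Chains of different networks also varied together, with r = 0.76 and rho = 0.71 for Col1a1 and Col4a1, and r = 0.74 and rho = 0.71 for Col3a1 and Col4a1. For Col3a1 and Col5a2, r was 0.57 and rho was 0.52. For these 7 pairs the two-sided permutation p was 1e-05, the smallest that 100000 permutations can give (1.43e-05 after Benjamini-Hochberg adjustment over the 10 pairs).

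The 7 relations were positive in each of the 4 runs, where r lay between 0.35 and 0.95, and without the 2 hearts farthest from the median on the first chain r was between 0.53 and 0.83. The remaining pairs had a lower r. Col5a1 and Col5a2 gave r = 0.12 (rho = 0.12, permutation p = 0.302 for both) and Col4a5 and Col4a6 gave r = 0.23 (rho = 0.20, p = 0.0786 and 0.102, adjusted p = 0.0873 and 0.128). For Col15a1 and Col18a1, r was 0.25 (p = 0.0292, adjusted p = 0.0365) and rho 0.17 (p = 0.153, adjusted p = 0.17), and r was 0.16 without the 2 farthest hearts and 0.205, 0.204, 0.412 and 0.473 within runs 1 to 4. Within the same runs r was -0.059, 0.332, -0.185 and 0.648 for Col5a1 and Col5a2, and 0.032, 0.23, 0.31 and 0.375 for Col4a5 and Col4a6. All chains of a heart come from 1 array and share its normalization.

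**Figure D5:**
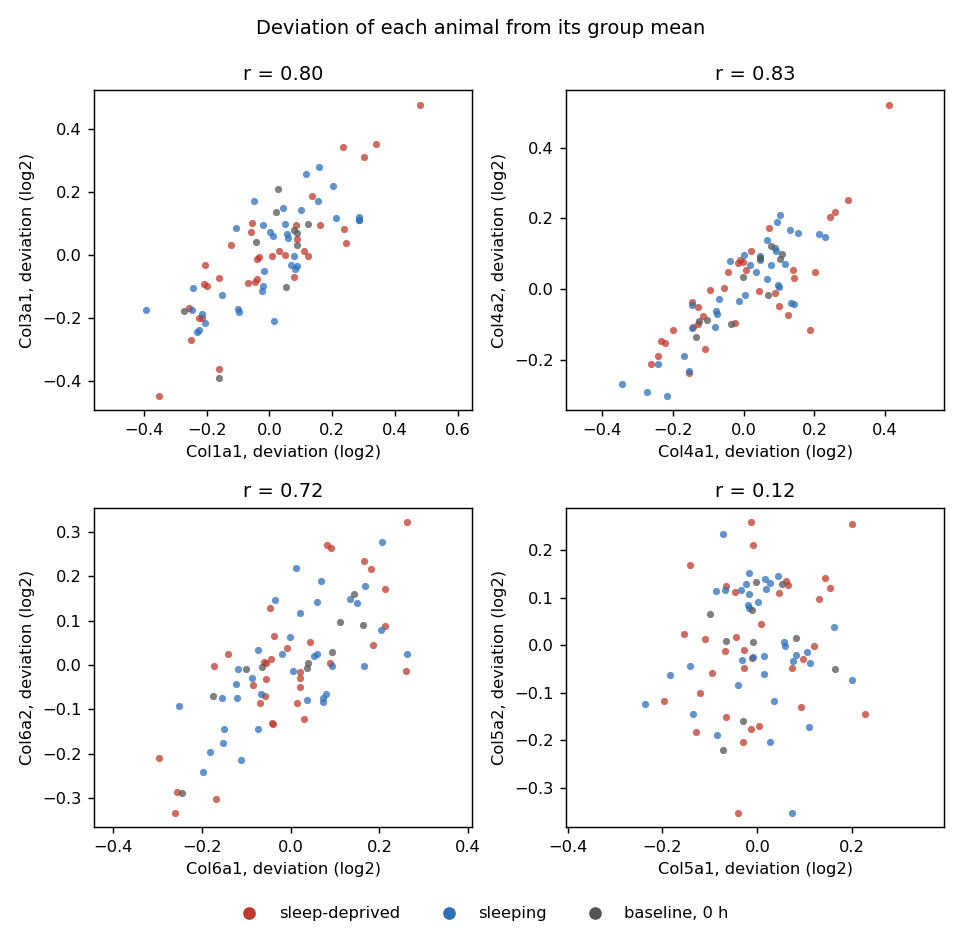
Deviation of each of 80 hearts from its group mean (log2, both axes) for pairs of collagen chains, with sleep-deprived, sleeping and baseline hearts in separate colours and Pearson's r above each panel. Col1a1 with Col3a1 and Col4a1 with Col4a2 form narrow bands (r = 0.80 and 0.83), whereas Col5a1 with Col5a2 form a round cloud (r = 0.12).

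Among genes that act on collagen, several enzymes of chain modification and cross-linking were higher in sleep-deprived hearts. Of 16 hydroxylases and chaperones that modify and fold chains in the endoplasmic reticulum, 6 passed upward in deprived hearts and 0 downward, beside 5.08% of all named genes upward and 6.45% downward. They included P4ha1, a subunit of prolyl hydroxylase (0.51 ± 0.05, limma adjusted p = 5.16e-11), Plod3, a lysyl hydroxylase (0.26 ± 0.02, adjusted p = 1.38e-13), P4ha2 (0.27 ± 0.05) and P3h2 (0.24 ± 0.04). Lox, the oxidase that starts cross-links, was higher by 0.46 ± 0.06 (adjusted p = 5.73e-09), and it was the only one of 5 cross-linking genes called. Of 11 signalling genes upstream of collagen, Ccn2, the connective tissue growth factor, was higher (0.61 ± 0.06, adjusted p = 8.58e-12) and Tgfb2 lower (-0.16 ± 0.04). Of 13 genes of collagen degradation, 4 were higher and 2 lower, read against the same shares of all named genes. Among them were the inhibitors Timp4 (0.72 ± 0.11) and Timp1 (0.35 ± 0.06) and the proteases Mmp3 (0.25 ± 0.06) and Fap (-0.27 ± 0.04).

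With 5.08% of all named genes higher and 6.45% lower, the other lists had few calls. Among 14 fibril-associated proteins 2 were higher (Thbs1 0.37 and Prelp 0.24) and 1 lower (Lum -0.24). Of 13 basement membrane partners 1 was higher (Nid1, the linker between laminin and type IV, 0.13) and 1 lower (Agrn -0.14). Of 9 genes of propeptide processing 0 were higher and 1 lower (Tll2 -0.25), and of 9 collagen receptors none was called. These lists were drawn up with earlier results of the data known.

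Over sleep these lists held calls in both directions, in slopes where time and run cannot be told apart. Slopes with the runs as a block are not given for these genes. Serpinh1, the collagen chaperone, fell by 0.62 across 12 h (limma adjusted p = 1.91e-12), Lox by 0.47 and Loxl1 by 0.64, and Creb3l1, a transcription factor known to activate a type I collagen gene in bone, fell by 0.97 (adjusted p = 1.76e-14). Plod2 rose by 0.42. Among the genes of degradation the inhibitors Timp4 and Timp3 rose by 1.34 and 0.84 and the protease Ctsk by 0.51. Over deprivation Timp4 (1.58), Timp3 (1.01) and Plod2 (0.35) rose past 1% as well across 12 h. Serpinh1 (-0.53), Creb3l1 (-0.88), Loxl1 (-0.49), Mmp14 (-0.74) and Mmp9 (-0.44) fell past 1% there, whereas Lox and Ctsk were not called. In sleep the membrane protease Mmp14 fell by 0.77, the proteases Mmp9 and Mmp3 by 0.46 and 0.37, and the inhibitor Timp1 by 0.47. In counts, 5 of the 16 hydroxylases and chaperones fell and 1 rose, 3 of 5 cross-linking genes fell and 0 rose, 4 of 11 upstream signals fell and 2 rose, 3 of 13 basement membrane partners fell and 3 rose, 4 of 13 genes of degradation fell and 3 rose, 3 of 14 fibril-associated proteins fell and 1 rose, 1 of 9 receptors fell and 2 rose, and 1 of 9 genes of propeptide processing fell and 1 rose, beside the 12.9% of named genes that fell and the 9.36% that rose.

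Markers of cell types that make collagen were called as well. Their slopes and their values beside baseline also span runs, so there time and run cannot be told apart. For 11 endothelial markers the mean per heart ran from 9.80 to 10.002 after 12 h of deprivation and from 9.63 to 9.79 after 12 h of sleep, against 9.87 to 9.97 at baseline, and 5 of the 11 fell over sleep (Kdr by 0.89 and Cldn5 by 0.92 across 12 h) while 2 rose, beside 12.9% of all named genes that fell and 9.36% that rose. For 13 fibroblast markers, none of them a collagen, it ran from 9.59 to 9.70 after 12 h of deprivation and from 9.34 to 9.68 after 12 h of sleep, against 9.46 to 9.71 at baseline, with 3 falling over sleep (among them Tcf21 by 0.63) and 1 rising. Between the states, 3 of the 11 endothelial markers passed upward with deprivation and 0 downward, and of the 13 fibroblast markers 4 passed upward and 1 downward, beside 5.08% and 6.45% of all named genes. Ddr2 and Lum stand both among the fibroblast markers and among the genes above. For 9 markers of smooth muscle and pericytes, 0 passed upward and 3 downward with deprivation, and 3 rose and 1 fell over deprivation, beside 5.36% and 9.04% of all named genes. Of 5 adipocyte markers 3 rose over sleep (Ucp1 by 2.70, Plin1 by 1.496 and Adipoq by 1.46 across 12 h) and 0 fell. Their mean ran from 5.82 to 7.86 after 12 h of deprivation and from 5.56 to 8.43 after 12 h of sleep, against 4.72 to 7.74 at baseline. The part of these cell types in the results for the chains was not tested.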

How the data were processed

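RNA from 80 mouse hearts was hybridised to 1 array each. The deposited values are log2 intensities per probe set that the authors obtained with the robust multi-array average (RMA, per the submitters' processing notes), and no further normalization was applied. The decimal points were missing from the deposited table and were restored (after the second digit where the string began with 10 to 13, otherwise after the first), which put 173798 of 2844480 values at 10 or above. Of 35556 probe sets, 21218 had 1 gene symbol, 1881 several and 12457 none. Replicates were separate animals numbered in accession order.

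Differences were tested with limma 3.58.1 in R 4.3.3, with Benjamini-Hochberg adjustment over all probe sets and a false discovery rate of 1%. The pooled contrast compared 34 sleep-deprived with 36 sleeping hearts without a term for time, the contrasts by time and against baseline came from 1 fit of 9 group means, and trends were slopes on hours with baseline at 0. The procedure was tested on simulated data. Values are described for every fibrillar and type IV chain and for every other chain past 1% in a comparison, and the rest by range. Of genes that act on collagen, up to 4 a list are named from the pooled comparison, and those named over sleep, Col18a1 and the marker genes were chosen after their values were seen. The chains and lists were chosen with earlier results of these data known. Alternatives were a filter on dim probe sets, centred arrays, repeated quantile normalization, array weights, trended and robust shrinkage, 1 probe set per symbol, runs as a block or alone, time as a factor, and omission of times, of baseline, of arrays that stood apart or, chosen after seeing the data, of arrays high in skeletal muscle genes. The number of arrays limits the precision.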

Additional observations from a re-analysis of the deposited data

Results flagged for a closer look

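Single hearts stood far from the others of their group in 16 of 207 groups of values (7.73%) of the 23 described chains, by Dixon's criterion at the 95% level, which chance alone meets in about 1 of 20 groups. Among sleep-deprived hearts, animal 7 at 3 h was high for Col15a1 (8.34, the next 7.90) and for Col4a2 (8.70, the next 8.18). Animal 9 at 6 h was low for Col15a1 (7.22, the next 7.56) and Col6a3 (6.52, the next 6.84), and animal 8 at 3 h was low for Col24a1 (4.09, the next 4.27).

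Among sleeping hearts, Col4a3 was high in animal 2 at 3 h (5.26), animal 3 at 9 h (5.27) and animal 6 at 12 h (5.41). Low values were those of Col14a1 in animal 1 at 3 h (6.84, the next 7.04), Col27a1 in animal 1 at 6 h (5.03, the next 5.22), Col4a4 in animal 5 at 9 h (5.18, the next 5.30), Col5a1 in animal 9 at 12 h (5.60, the next 5.71) and Col5a3 in animal 7 at 9 h (4.68, the next 4.96). At baseline, Col11a1 was low in animal 2 (4.01, the next 4.11), which is also 1 of the 5 animals high in skeletal muscle genes, Col6a2 was low in animal 1 (7.51, the next 7.72), and Col5a3 was high in animal 10 (5.77, the next 5.55).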

How the results depend on the processing

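Of 346 alternative values for the 35 chain results past 1%, 293 kept their direction and their side of the threshold, 42 kept the direction only and 11 turned it. 19 of the 35 lost their call in some setting. The pooled count of 2 chains was 1 with centred arrays, with repeated quantile normalization or without the 3 h animals, and 0 without the 6 h, the 9 h or the 12 h animals or within any of the runs 1 to 4 alone, where Col20a1 was -0.047 in run 1. The pooled difference of Col4a1 passed 1% with time as a factor or with the runs as a block. The trend over sleep gave 1 chain in place of 9 with the runs as a block or over 0 to 6 h alone, and the trend over deprivation gave 0 in place of 5 in both settings and 9 without baseline. The chains added over deprivation without baseline were Col4a1, Col4a2, Col6a1 and Col6a3. Between 12 h and 9 h, the count of 1 over sleep was 2 with centred or requantiled arrays, and the count of 1 over deprivation was 2 without the dimmest probe sets, with centred arrays, with array weights, with trended and robust shrinkage or with 1 probe set per symbol. Without the arrays high in skeletal muscle genes, an alternative chosen after seeing the data, the 2 chains lower after 6 h of deprivation were 0. Slopes that turned, in log2 units per hour, were those of Col11a2 over sleep (-0.0047) and Col4a6 over deprivation (-0.0039) with the runs as a block. Over 0 to 6 h of sleep they were Col6a3 (0.018), Col6a2 (0.018), Col11a2 (-0.0061), Col15a1 (0.019), Col4a2 (0.0038) and Col4a1 (0.0082), and over 0 to 6 h of deprivation Col6a2 (0.0028) and Col4a6 (-0.015). The cause was not tested. No paired analysis was possible because the labels give the animals no shared replicate numbers across groups.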
